A study of Homo sapiens with 2 samples.

Results

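MiR-34a, miR-34b, miR-34c, miR-192, miR-194 and miR-215 are miRs known as targets of the transcription factor p53, and they were read here in a leukemia line that lacks working p53 and was kept in a DNA-damaging drug. They were found in the deposited table by name, with every arm listed, and came to 9 of its 934 names: miR-34a, miR-34b, miR-34b*, miR-34c-5p, miR-192, miR-192*, miR-194, miR-194* and miR-215. A name with an asterisk stands for the arm of its hairpin catalogued as the less used, which was not always so in these libraries. They were picked by name and not by a measured value, although earlier results of these data were known when they were chosen.

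Small RNA was sequenced from K562/ADM and from K562, with 1 library of each. K562 is a human chronic myelogenous leukemia line, and K562/ADM is a drug-resistant line selected from it with adriamycin (ADM, also called doxorubicin). The drug stayed in its medium at 1000 ng/mL, while none is given for K562. ADM poisons topoisomerase II and so breaks DNA. K562/ADM is a selected line sampled in the drug, so that long selection and the presence of the drug cannot be told apart. P53 itself was not measured.

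When DNA is broken in cells with working p53, p53 binds at the genes of the miR-34 family and raises their transcription, and the miRs then hold back cell cycle and survival genes such as CDK6, MET and BCL2. MiR-192, miR-215 and miR-194 come from a pair of clusters and are likewise raised by p53. MiR-192 and miR-215 halt the cell cycle together with p21, and in myeloma cells these miRs act on MDM2, the ligase that degrades p53. Outside that response they are best known from epithelium of the gut, from liver and from kidney, and miR-34b and miR-34c from ciliated cells and testis.

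The mature sequences show which of these miRs can share targets, since a miR pairs with its targets mainly through bases 2 to 8 from its 5′ end, the seed, which is in capitals. RefSeq (GRCh38.p14) gave sequences for 8 of the 9 names and for their relatives miR-449a, miR-449b and miR-449c. MiR-34c-5p is named only.

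miR-34a: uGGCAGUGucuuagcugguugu
miR-34b*: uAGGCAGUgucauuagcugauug
miR-449a: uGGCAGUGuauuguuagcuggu
miR-449b: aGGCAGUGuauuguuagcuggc
miR-449c: uAGGCAGUguauugcuagcggcugu
miR-192: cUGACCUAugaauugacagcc
miR-215: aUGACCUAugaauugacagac
miR-194: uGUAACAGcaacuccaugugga

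Among the sequences printed, miR-34a shares its seed with miR-449a and miR-449b, and miR-34c-5p was not compared. In miR-34b* and miR-449c the letters GGCAGUG lie 1 base further in, starting at base 3 in place of base 2, so that these 2 share another seed, which the RefSeq table also gives for miR-2682-5p. MiR-192 and miR-215 share a seed that no other mature name of the RefSeq table has. They are identical at 19 of 21 bases and differ by C1A and C20A, counted from the 5′ end, with the base of miR-192 first and that of miR-215 last. No source used here says how reads that match both were assigned in the authors' mapping. The seed of miR-194 was found in no other name of that table, and the 3 remaining arms, miR-34b, miR-192* and miR-194*, also had seeds of their own.

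The genes lie on chromosomes 1 and 11, by exact match of each hairpin to GRCh37. MIR34A (9211727 to 9211836) is on chromosome 1, minus strand, and overlaps an exon of its lncRNA host gene MIR34AHG. MIR215 (220291195 to 220291304) and MIR194-1 (220291499 to 220291583) are neighbours on the minus strand of chromosome 1, within an intron of IARS2 on the opposite strand. MIR192 (64658609 to 64658718) and MIR194-2 (64658827 to 64658911) lie 108 bases apart on the minus strand of chromosome 11 and overlap exons of the lncRNA gene MIR194-2HG. MIR34B (111383663 to 111383746) and MIR34C (111384164 to 111384240) are 417 bases apart on the plus strand of chromosome 11, overlap exons of the lncRNA gene MIR34BHG, and also lie within BTG4 on the opposite strand. Mature miR-194 can come from either cluster, since the RefSeq mature miR-194 of both hairpins is the same, and its reads cannot be divided between them.

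The depth behind the values was 6895193 miR reads in K562/ADM and 7677738 in K562, recovered as whole reads from the deposited values. The 9 names together took 0.383% of the reads in K562/ADM (95% interval 0.378 to 0.387, Clopper-Pearson) and 0.329% in K562 (0.325 to 0.333). MiR-192 alone made up 94.3% of the members' reads in K562/ADM and 96.2% in K562. The other 8 names therefore rest on 1498 reads in K562/ADM and 952 in K562, and the precision of each follows its own reads. All intervals given cover counting error only. With 1 library per line there is no replicate check, no p-value was computed, and each comparison is between these libraries. Blood cell miRs were abundant in both, with miR-142-3p at 507475 reads in K562/ADM and 351692 in K562 and miR-451, typical of red cell precursors, at 19738 and 30470 reads. No name of the blood cell list, of 11 listed, was called in either direction, beside 11.1% of all names called higher and 15.6% lower.

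Among the members, the level in reads per 1000000 miR reads (RPM) ran over several orders of magnitude. MiR-192 was at 3611 RPM in K562/ADM and 3162 in K562, and ranked at place 20 and place 29 by abundance. MiR-194 was at 130 RPM in K562/ADM and 96.4 in K562, and miR-215 at 69.3 and 19.5. These 3, the miRs known from gut, liver and kidney, kept this order in both libraries, with each step larger than counting error.

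The miR-34 names were far less abundant. MiR-34c-5p stood at 9.43 RPM in K562/ADM and 3.26 in K562, and miR-34a at 4.21 and 0.781. In K562/ADM miR-34c-5p was above miR-34a beyond counting error, and miR-34a and miR-192* were not separated. In K562 miR-34c-5p and miR-192* were not separated, nor were miR-194* and miR-34a. MiR-34b and miR-34b* had 1 read each in K562/ADM and 0 in K562, where the floor of 3 reads stands at 0.391 RPM and the exact 95% Poisson interval of 0 reads ends at 0.480 RPM. The mature miRs are of nearly equal length, so that levels were compared as read shares, and differences in how well each miR enters a library were not tested.

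**Figure D1:**
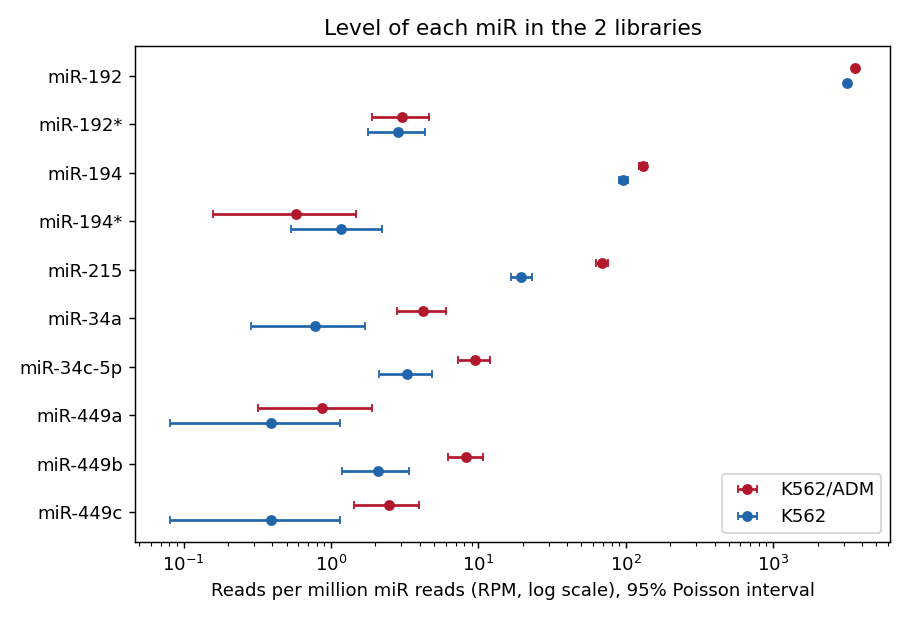
Level of each miR in reads per 1000000 miR reads (RPM, x axis, log scale) in K562/ADM (red, above) and K562 (blue, below), for the 7 members with reads in both libraries and 3 miR-449 relatives. Bars are exact 95% Poisson intervals, and miR-34b and miR-34b*, without reads in K562, are not drawn. MiR-192 stands far to the right at 3611 and 3162 RPM, while the miR-34 names lie under 10 RPM.

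Between the libraries, 3 of the 9 names were called higher in K562/ADM, 0 were called lower and 6 were not called. A call required a ratio of at least 2-fold, after scaling by the median of ratios, and an exact 95% interval that excluded 1. Over all 934 names, 11.1% were called higher and 15.6% lower. Among the 604 names that reached 10 reads, summed over both libraries, 16.1% were called higher and 23.3% lower, and 7 of the members pass that minimum. The median log2 ratio of these 7 was 0.57, against -0.08 over the 604 names. With so few names the counts describe the members and do not set them apart from the table.

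MiR-34a, the member of its family most closely tied to p53, had 29 reads in K562/ADM against 6 in K562. It was 5.92-fold higher, with a 95% interval of 2.41 to 17.4. The groups of reads are small, so that the size of the difference is known only within that wide interval.

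MiR-34c-5p had 65 reads in K562/ADM against 25 in K562, a ratio of 3.18 (95% interval 1.98 to 5.27). Its cluster partner miR-34b was at 1 read or none on both arms, which is at or under the floor of 3 reads, so that no fold is given for it. The 2 miRs of this cluster thus differed in level within K562/ADM, with 65 reads for miR-34c-5p and 2 reads for both arms of miR-34b together.

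MiR-215 had 478 reads in K562/ADM against 150 in K562. At 3.90-fold higher, with a 95% interval of 3.24 to 4.72, it was the most closely measured of the 3 called members. Its whole interval lay above 2-fold, as did that of miR-34a, while the interval of miR-34c-5p reached slightly below 2-fold.

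MiR-192 and miR-194 were close to equal in the libraries by comparison. MiR-192 had 24899 reads in K562/ADM and 24278 in K562, a ratio of 1.26 (95% interval 1.23 to 1.28). MiR-194 had 899 and 740 reads, a ratio of 1.49 (1.35 to 1.64). Both intervals exclude 1 and lie under 2-fold, and for miR-192 the direction depended on the scaling. When the libraries were scaled by the total reads sequenced, its ratio was 0.896.

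The passenger strands were sparse. MiR-192* had 21 reads in K562/ADM and 22 in K562, with a ratio of 1.17 (95% interval 0.612 to 2.23). MiR-194* had 4 and 9 reads, with a ratio of 0.544 (0.122 to 1.95). Neither difference was detectable at this depth.

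**Figure D2:**
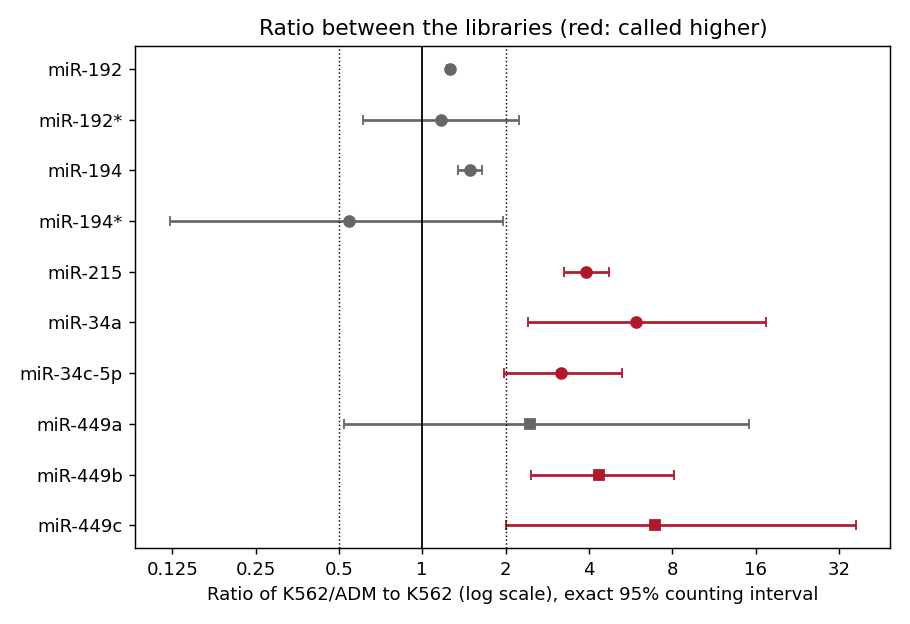
Ratio of K562/ADM to K562 (x axis, log scale) for 7 members (circles) and 3 miR-449 relatives (squares). Bars are exact 95% counting intervals, red marks the names called higher, and lines are drawn at 1 (solid) and at 2-fold differences (dotted). MiR-215, miR-34a and miR-34c-5p lie to the right at 3.90, 5.92 and 3.18, while miR-192 and miR-194 lie between 1 and 2.

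Because the scaling of the libraries cancels when 2 miRs are compared within each library, pairs of members were also set against each other. Of the pairs of arms and cluster partners planned, 4 could be given a value, and 3 pairs were added after the values were seen. MiR-215 stood at 53.2 reads per 100 reads of its cluster partner miR-194 in K562/ADM, against 20.3 in K562. The ratio of these ratios was 2.62 (exact 95% interval 2.12 to 3.25), so that the partners differed by more than counting error. For miR-194 over miR-192, the partners on chromosome 11, it was 1.18 (1.07 to 1.31), with 3.61 and 3.05 reads of miR-194 per 100 of miR-192. MiR-194, which both clusters can make, had a ratio between those of miR-192 and miR-215.

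The same-seed pair gave the widest contrast. MiR-215 made up 1.88% of the reads of miR-192 and miR-215 together in K562/ADM (95% interval 1.72 to 2.06, Clopper-Pearson) and 0.614% in K562 (0.520 to 0.720). Its ratio was 3.11 times that of miR-192 (2.58 to 3.76), a pair chosen after the values were seen. Summed over both miRs the ratio was 1.27 (1.25 to 1.29), close to that of miR-192 alone, since miR-192 holds nearly all reads with this seed.

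The other pairs were not separated. The ratio of ratios was 0.931 for miR-192* over miR-192 (95% interval 0.487 to 1.77) and 0.366 for miR-194* over miR-194 (0.0820 to 1.32). For miR-34a over miR-34c-5p it was 1.86 (0.647 to 6.12), an interval too wide to say which of these 2 miRs differed more between the libraries.

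**Figure D3:**
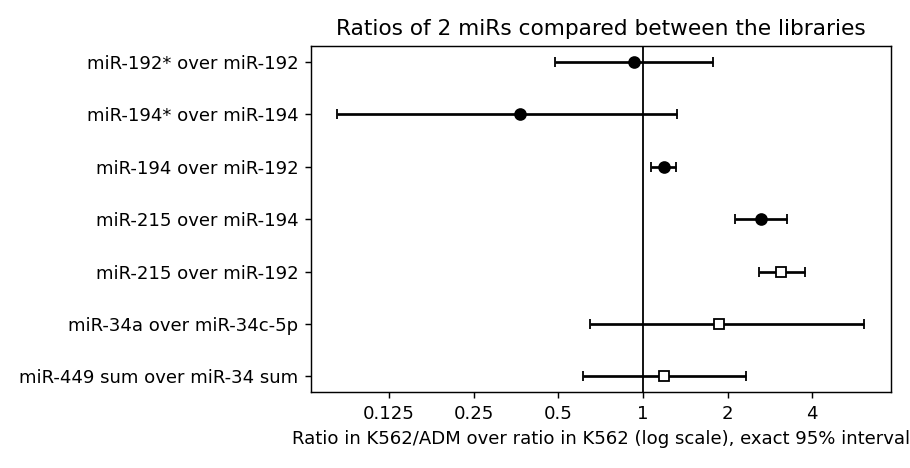
Ratio of 2 miRs in K562/ADM divided by the same ratio in K562 (x axis, log scale), with exact 95% intervals. Filled circles are planned pairs, open squares are pairs chosen after the values were seen, and the vertical line marks no difference. MiR-215 stands apart from miR-194 (2.62) and from miR-192 (3.11), and the 4 pairs of arms, of miR-34 names and of family sums have intervals that hold 1.

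MiR-449a, miR-449b and miR-449c, made from an intron of CDC20B and typical of ciliated cells, resemble the miR-34 family in their first bases. MiR-449b had 57 reads in K562/ADM against 16 in K562, a ratio of 4.36 (95% interval 2.47 to 8.14). MiR-449c had 17 and 3 reads, a ratio of 6.94 (2.01 to 37.0), and miR-449a 6 and 3 reads, a ratio of 2.45 (0.523 to 15.1). Of the 5 miR-449 names 2 were called higher and 0 lower, beside 11.1% of all names called higher and 15.6% called lower.

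Summed over miR-34a, miR-34b*, miR-34c-5p and the 3 miR-449 miRs, there were 175 reads in K562/ADM and 53 in K562, a ratio of 4.04 (95% interval 2.96 to 5.61). The miR-34 names of that sum had a ratio of 3.75 (2.48 to 5.83) and the miR-449 names one of 4.45 (2.75 to 7.50). Their ratio of ratios was 1.19 (0.610 to 2.33), an interval that holds 1. The whole family remained a trace component, at 0.00254% of the miR reads in K562/ADM and 0.000690% in K562.

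Other miRs that have been tied to p53 were counted in 3 lists, to be read beside the 11.1% of all names called higher and 15.6% called lower, or 16.1% and 23.3% of the names that reached 10 reads. Differences between the lists were not tested. Of 20 names of miRs described as raised by p53, 5 were called higher, 0 lower and 15 neither. MiR-145, a miR of smooth muscle and fibroblasts, had 6211 reads in K562/ADM against 3045 in K562, a ratio of 2.50 (95% interval 2.39 to 2.61), and miR-1246 was 6.02-fold higher (5.94 to 6.10). MiR-16, among the miRs whose processing p53 is known to promote, and miR-15a had ratios of 1.48 (1.45 to 1.51) and 1.65 (1.58 to 1.73). Neither was called, and miR-107 was at 0.704 (0.575 to 0.859). The remaining higher names of this list were miR-143 at 7.68 (6.62 to 8.94), miR-149 at 11.6 and miR-16-1* at 2.01 (1.59 to 2.55). MiR-149 rested on 95 reads in K562/ADM and 10 in K562. A median log2 ratio of 0.73 was found over the 15 names that reached 10 reads.

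MiR-17, miR-18a, miR-19a, miR-19b, miR-20a and miR-92a, described as repressed by p53, had 0 names higher, 5 lower and 12 not called of 17. The list was made by name and includes arms of the second miR-19b hairpin (miR-19b-2*). All 5 lower names were among the 16 names that reached 10 reads, where the share of lower names over the table is 23.3%. Their most abundant names were not called, with a ratio of 0.598 (95% interval 0.593 to 0.602) for miR-20a, 0.819 (0.813 to 0.826) for miR-18a, 0.513 (0.508 to 0.518) for miR-92a and 0.648 (0.637 to 0.659) for miR-19b. The median log2 ratio was -0.85 over those 16 names. The 5 lower names included miR-19a, 2.15-fold lower (2.10 to 2.19), and 4 names with an asterisk. Names written with mir- and with miR- were counted apart in all lists, although some differ only in this. The called name mir-17* had 348 reads in K562/ADM and 983 in K562, a ratio of 0.434 (0.383 to 0.490). The far deeper miR-17*, with 18052 and 26734 reads, had a ratio of 0.827 (0.811 to 0.843) and was not called.

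For miRs described as acting on the mRNA of p53 itself, 1 name was higher, 6 were lower and 11 were not called of 18, against the same shares over the table. Of these 6, 3 are names of miR-380, whose gene lies in the imprinted 14q32 region. The list had a median log2 ratio of -0.56 over 16 names. The abundant members of the list were not called, with a ratio of 1.20 (95% interval 1.19 to 1.21) for miR-30d, 0.637 (0.625 to 0.649) for miR-25, 1.25 (1.19 to 1.31) for miR-33a and 0.546 (0.511 to 0.583) for miR-1285. The 1 higher name was miR-504, with 27 reads in K562/ADM and 0 in K562.

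MiRs of tissues in which the members are abundant were also counted. The counts are to be read beside the 11.1% of all names called higher and 15.6% called lower. Of the names that reached 10 reads, 16.1% were higher and 23.3% lower, and only 3 names of each list reached that minimum. Of 8 names typical of epithelium, liver, gut and kidney, 2 were higher and 1 lower, and the list summed to 514.7 RPM in K562/ADM and 35.6 in K562. MiR-375 alone gave 509.5 and 25.5 of these RPM, so that the sums mainly describe miR-375. MiR-375 had 3513 reads in K562/ADM and 196 in K562, miR-200a had 9 and 2, and miR-203 had 18 and 66. MiR-122, which defines liver, had 4 reads in each library. Of 7 names typical of ciliated cells and testis, which include the miR-449 names, 3 were higher and 0 lower, with 22.5 RPM in K562/ADM and 3.52 in K562. The higher names were miR-449b and miR-449c, already counted above, and miR-202*, which had 71 and 4 reads. The part of such cell type differences in the values of the members was not tested.

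The ratios of the members moved together with the scaling. Upper-quartile scaling raised every log2 ratio by 0.74 and carried miR-192 to 2.10 and miR-194 to 2.49, so that 5 members were called higher, against 23.9% of all names. Under total reads sequenced every log2 ratio dropped by 0.49, and miR-34a, miR-215 and miR-34c-5p were at 4.22, 2.78 and 2.27. All 3 were called higher under each of the 6 other scalings.

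**Figure D4:**
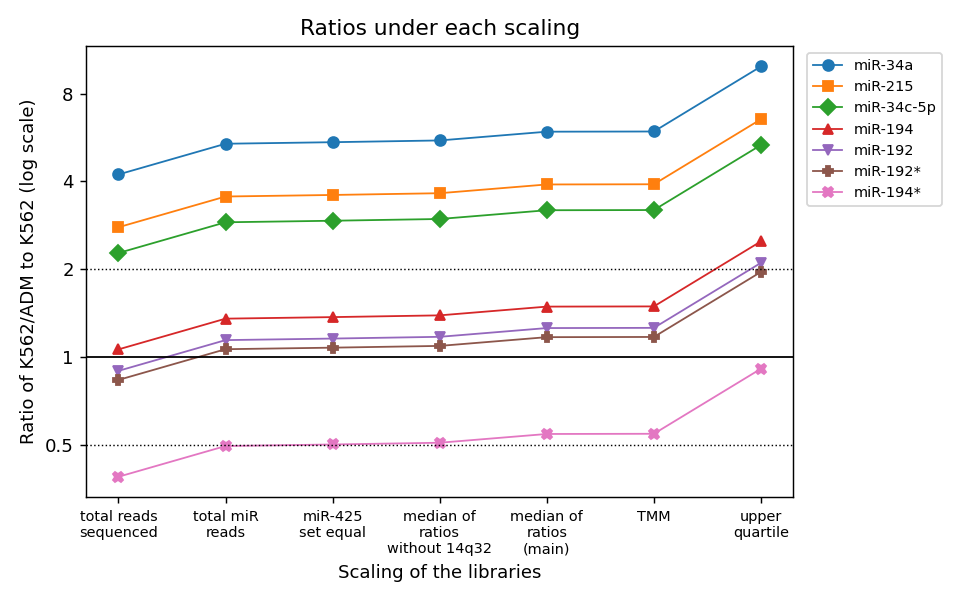
Ratio of 7 members (K562/ADM over K562, y axis, log scale) under each scaling of the libraries (x axis, ordered by the shift it makes). Lines are drawn at 1 (solid) and at 2-fold differences (dotted). MiR-34a, miR-215 and miR-34c-5p stay above 2-fold throughout, while miR-192 and miR-194 pass it under upper-quartile scaling, where miR-192 reaches 2.10, and miR-192 is at 0.896 under total reads sequenced.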

How the data were processed

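Small RNA libraries of K562/ADM and K562 cells, 1 of each, were analysed. The authors collapsed identical reads, omitted singletons, removed the adapter and mapped with Bowtie in miRanalyzer to miRBase, and the submitters' processing notes also name CASAVA 1.7.0, DESeq and hg18. The deposited signal is the read count of a miR name divided by the size factor of its library. The deposited ratio (fold change), log2 and p-value columns are the authors' own comparison and were not used. Every value came out as a whole number of reads (100% within 0.001, relative to the value). A count model could not be fitted to 1 library per line.

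The reads were scaled by the median of ratios. Ratios have exact 95% Clopper-Pearson intervals from the split of reads, ratios of ratios have exact conditional intervals, and levels have exact Poisson intervals. The study states that singletons were omitted, yet the table holds names with a total of 1 read, such as miR-34b, and how these arose was not tested. Names with 0 reads were set at a floor of 3 reads in list medians. The procedure was tested on simulated data. The members and lists were chosen with earlier results of these data known. All member names were described, and from each list up to 4 names with the most reads. Further list names (miR-19a, miR-107, miR-143, miR-149, miR-16-1* and miR-504 among them) were chosen after their values were seen. Names of older miRBase releases were paired by hand with RefSeq names (GRCh38.p14), and hairpins were located on GRCh37 with GENCODE annotation. The alternatives were 6 other scalings, read minimums, other call rules, summed arms and pseudocounts. MiR-150, miR-155 and miR-31 of the lists were not analysed here. Python 3.11.15, numpy 2.4.6, scipy 1.17.1, matplotlib 3.10.9, edgeR 4.0.16 and R 4.3.3 were used, the last pair for the factors of TMM and upper-quartile scaling.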

Additional observations from a re-analysis of the deposited data

How the results depend on the processing

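The number of members called higher in K562/ADM, 3 with the settings of the report, was 5 under upper-quartile scaling and 5 when 2-fold alone was required. With 2-fold alone the 2 names added were miR-34b and miR-34b*, with 1 read against 0. It was 2 with at least 50 reads, which leaves out miR-34a, and 2 when the whole interval had to pass 2-fold, which leaves out miR-34c-5p. The number called lower was 0 under all 11 alternatives. The members' share of reads was 0.816% in K562/ADM and 0.665% in K562 without miR-378, the most abundant name. Of 49 ratios recomputed for single members, 10 moved outside their counting interval and 0 of the called ones changed direction. The 7 ratios of ratios stayed within their intervals with 0.5 added to each read count. No paired analysis was possible because each line has 1 library. With 6 reads of miR-34a in K562, depth limits the size of its fold more than any setting tried.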

Other observations

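Few names could be placed near the members by gene symbol. A gene listed under a symbol other than that made from the older name was missed, so that neighbours can be absent. Within 5 Mb of a member gene in RefSeq (GRCh38.p14), 6 further names were found among those matched to a single gene. Of these, 2 were called higher, 1 lower and 3 neither, beside 11.1% of all names called higher and 15.6% lower. Near MIR34B and MIR34C, miR-4301 had 1855 reads in K562/ADM against 366 in K562, a ratio of 6.21 (95% interval 5.55 to 6.96). Near MIR192 and MIR194-2, miR-1908 had 24 reads in K562/ADM and 11 in K562, a ratio of 2.67 (1.26 to 6.04), and miR-3163 had 5 and 43 reads, a ratio of 0.142 (0.0440 to 0.359).

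The 3 names with at least 1000 reads whose ratio was nearest to the 1.26 of miR-192 were miR-27b at 1.25, miR-33a at 1.25 and miR-197 at 1.27, of 167 names compared. Over 2 libraries such likeness is that of a single ratio.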
